A study of Mus musculus with 14 samples.

Results

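The epidermal growth factor (EGF) ligands and their ErbB receptors were examined in the lungs of Nkx2-1 mutant and control mice. NKX2-1 is a homeodomain factor that lung and thyroid epithelia need for their identity. The set was defined by gene name as the ligands Areg, Ereg, Hbegf, Tgfa, Btc, Epgn and Nrg1 and the receptors Egfr, Erbb2 and Erbb3. All 10 were listed among the 23793 loci of the AT1 and lung table, and 9 among the 31168 named loci of the AT2 table. Hbegf was not analysed here in AT2 cells. The whole set was taken whatever its level.

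EGF ligands are made as membrane-anchored precursors, cut free by sheddases such as ADAM17, and bind receptor tyrosine kinases that pair and signal through RAS and the MAP kinase ERK. EGFR binds amphiregulin, epiregulin, HB-EGF, TGF-alpha, betacellulin and epigen. ERBB3 binds neuregulin, and ERBB2 binds no known ligand and serves as the preferred partner of the other receptors. In lung epithelium the pathway is known for its part in branching, alveolar growth and repair.

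Flat alveolar type 1 (AT1) cells, across which gas is exchanged, were purified at postnatal day 5 (P5) from mice of the Nkx2-1;Aqp5 cross, with 3 mutant and 3 control libraries. Alveolar type 2 (AT2) cells, which secrete surfactant, came from the Nkx2-1;Sftpc cross, with 3 mutant and 3 control libraries taken at P8 (letters A and B) and P9 (letter C). Whole lung of the Nkx2-1;Aqp5 cross at P14 gave 1 mutant and 1 control library. The crosses are named after Aqp5, a gene of AT1 cells, and Sftpc, a gene of AT2 cells. The Nkx2-1 allele, the nature of the driver alleles, what the controls carry and how the AT2 cells were isolated could not be read from the labels used here. Nor do these say that libraries came from separate animals, so the p-values measure the spread between these libraries.

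Values were FPKM (fragments per kilobase, relative to all mapped fragments of the library) as deposited, so read depth is unknown. Summed FPKM ran from 458291 to 983397 over the 14 libraries. Nkx2-1 measured 22.8, 55.8 and 68.2 FPKM in mutant AT1 libraries A to C, against 262, 281 and 239.8 in control AT1 libraries. AT2 mutants held 74.4, 59.0 and 73.4 FPKM of it, against 247, 289 and 353 in AT2 controls. In lung it measured 52.1 FPKM in the mutant and 101 in the control. Since the allele is unknown, these levels check the labels only where it lowers the transcript.

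The labelled cell types were set against 8 markers each. In AT1 libraries the AT1 list (Ager, Hopx, Pdpn and others) summed to between 1143 and 2426 FPKM in mutants and between 8094 and 9896 in controls. The AT2 list summed to between 3044 and 11927 FPKM in the same mutants and between 8705 and 19249 in the same controls, so libraries labelled AT1 also held AT2 transcripts. In AT2 libraries the 7 AT2 markers listed summed to between 1896 and 3728 FPKM in mutants and between 83202 and 111274 in controls. The AT1 list summed there to between 708 and 1015 FPKM in mutants and between 2737 and 4076 in controls. In lung the AT1 list summed to 659 FPKM in the mutant and 2764 in the control, and the AT2 list to 8198 and 25411. In such bulk libraries, fewer cells of a type and less RNA per cell cannot be told apart.

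Of the genes, 4 sit side by side. Epgn, Ereg, Areg and Btc are the only 4 protein-coding genes in a stretch of 375.5 kb of mouse chromosome 5 (chr5:91027464-91402994, GRCm38, the mm10 build, GENCODE annotation). Areg lies at chr5:91139599-91148432 on the plus strand and Btc at chr5:91357261-91402994 on the minus strand. The start of Ereg (chr5:91074622-91093646, plus strand) overlaps an antisense gene, Gm19610, and reads of that pair cannot be told apart, as the use of strand is not stated. Egfr (chr11:16752203-16918158) and Erbb2 (chr11:98412470-98437716) lie on the plus strand of chromosome 11. Erbb3 (chr10:128567523-128589652) and Nrg1 (chr8:31814551-32884029) lie on minus strands, and Tgfa (chr6:86195223-86275719) on a plus strand.

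RefSeq promoter windows (GRCm38.p6) were matched for 6 of the 10 members. Those of Areg, Tgfa, Egfr and Erbb2 are printed because the results below turn on these genes. Each runs over the 250 bases before the gene's RefSeq start, in the gene's direction, with motif matches in capitals. For Erbb2 and Epgn that start lies inside the GENCODE gene, so the end of the window overlaps the gene as annotated there.
Areg, chr5:91139349-91139598, plus strand: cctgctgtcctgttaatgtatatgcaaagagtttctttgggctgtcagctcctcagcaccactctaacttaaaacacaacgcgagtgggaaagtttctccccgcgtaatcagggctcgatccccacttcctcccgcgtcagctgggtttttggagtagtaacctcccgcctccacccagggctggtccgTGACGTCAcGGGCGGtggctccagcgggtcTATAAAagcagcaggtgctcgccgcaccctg
Tgfa, chr6:86194972-86195221, plus strand: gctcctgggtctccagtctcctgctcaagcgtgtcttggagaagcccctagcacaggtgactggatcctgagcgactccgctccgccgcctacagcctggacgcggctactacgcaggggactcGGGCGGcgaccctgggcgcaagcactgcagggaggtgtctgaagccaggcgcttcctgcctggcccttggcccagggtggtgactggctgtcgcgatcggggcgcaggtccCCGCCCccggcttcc
Egfr, chr11:16751953-16752202, plus strand: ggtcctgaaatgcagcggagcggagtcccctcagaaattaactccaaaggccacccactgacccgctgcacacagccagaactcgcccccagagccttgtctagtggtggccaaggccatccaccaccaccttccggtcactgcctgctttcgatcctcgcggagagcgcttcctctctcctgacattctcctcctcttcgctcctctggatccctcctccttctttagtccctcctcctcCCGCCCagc
Erbb2, chr11:98412234-98412483, plus strand: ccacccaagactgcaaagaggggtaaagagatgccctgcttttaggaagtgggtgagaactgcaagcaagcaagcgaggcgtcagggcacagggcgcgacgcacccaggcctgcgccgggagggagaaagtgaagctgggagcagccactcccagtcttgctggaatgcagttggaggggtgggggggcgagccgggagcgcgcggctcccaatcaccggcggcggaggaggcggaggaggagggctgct

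The motifs, searched on both strands, were the NKX2 core CAAGTG, the AP-1 site TGANTCA, the GC box GGGCGG, the TATA box TATAAA and the cAMP response element TGACGTCA, and no matches overlapped. The Areg window held a cAMP response element that began 61 bases before the start, a GC box at 52 bases and a TATA box at 31 bases. Of 32851 windows in the table, 1.55% held the cAMP response element, 32.7% the GC box and 12.4% the TATA box. The Tgfa window held 2 GC boxes, the Egfr window 1, and the Erbb2 window none of the 5 motifs. The NKX2 core, held by 11.6% of all windows, was matched in the Epgn window, 176 bases before the start, and not in those of Areg, Tgfa, Btc, Egfr or Erbb2. The AP-1 site, held by 6.75% of all windows, was matched in none of the 6. These matches describe the letters of the windows and do not locate bound sites.

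**Figure D1:**
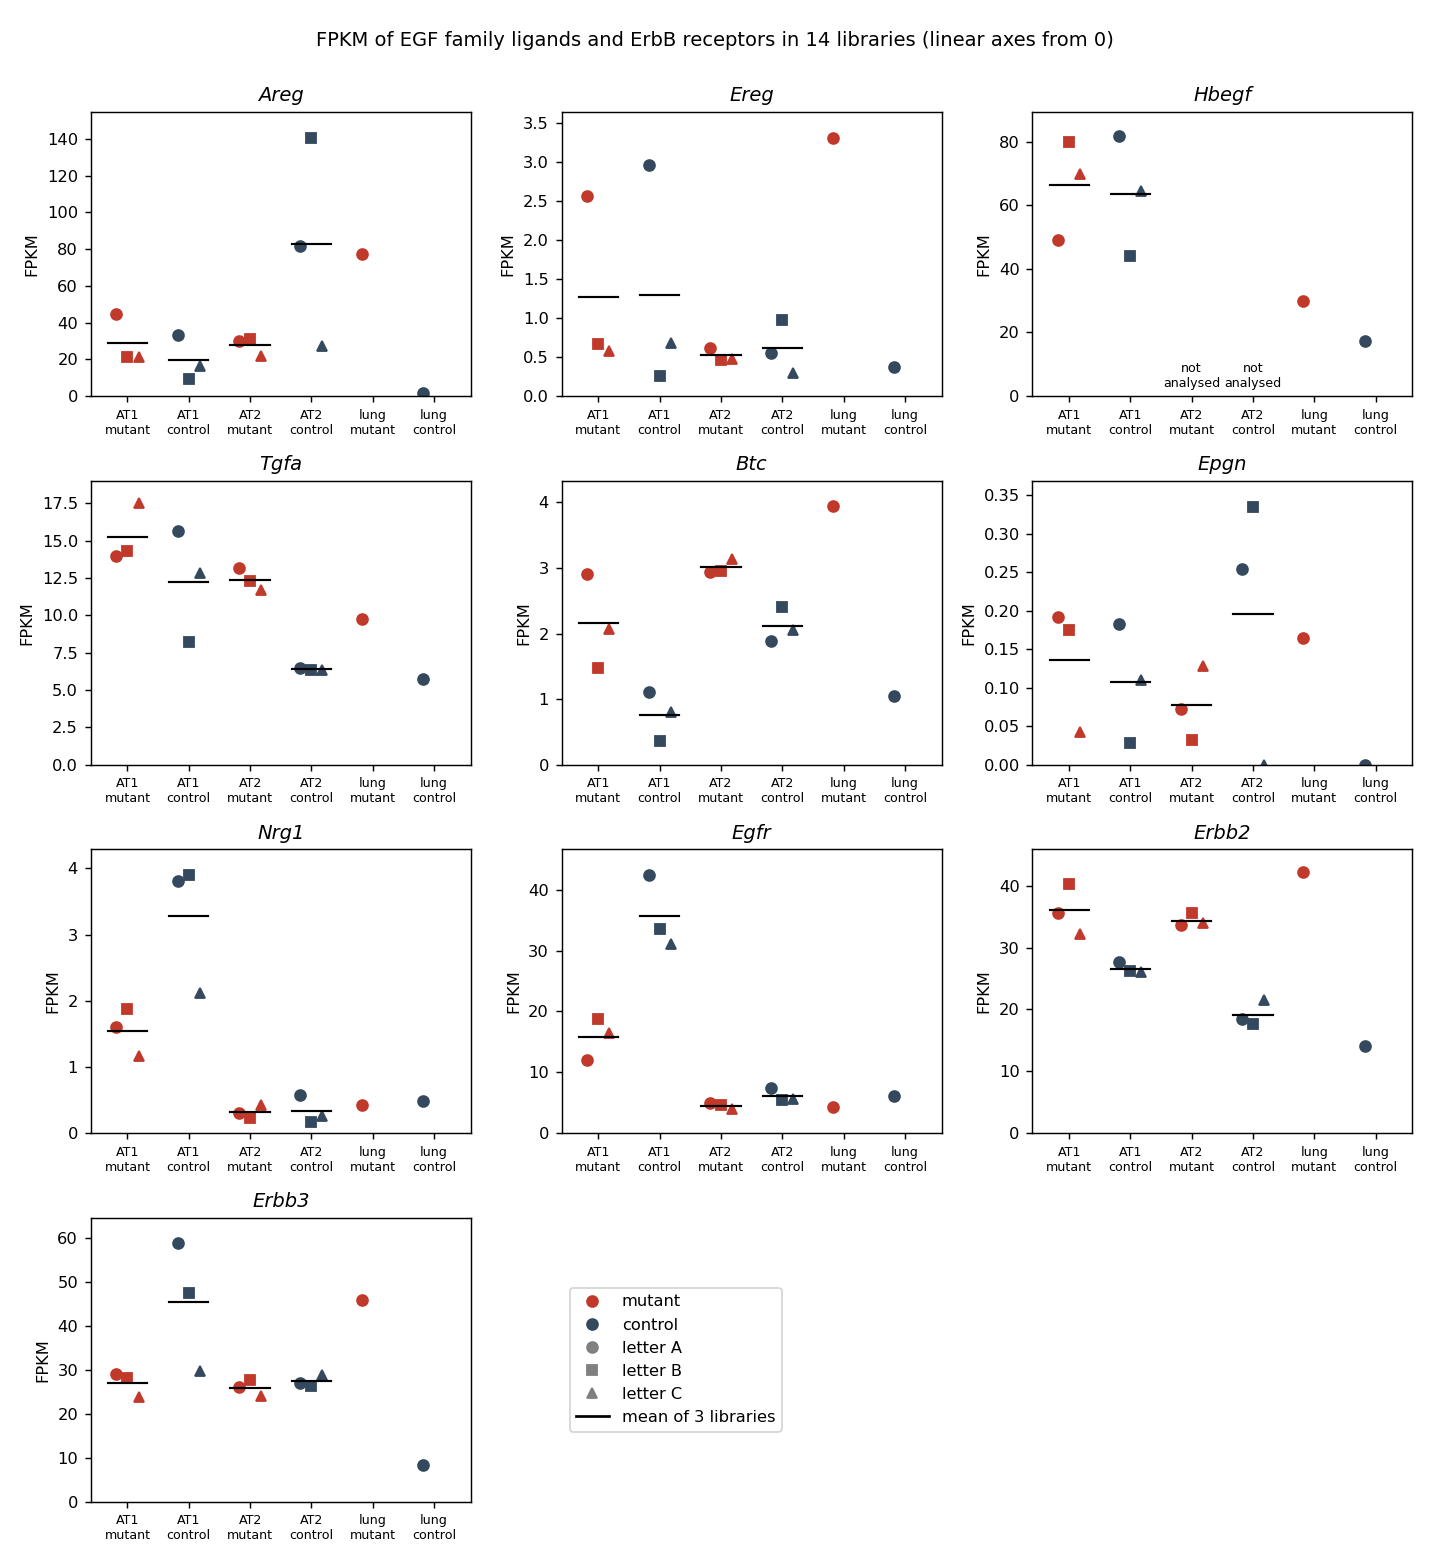
FPKM of each of the 10 genes (one panel per gene, linear axes from 0) in mutant (red) and control (dark blue) libraries of AT1 cells, AT2 cells and lung; the symbol shape gives the library letter and the black line the mean of 3 libraries. Egfr was lower and Erbb2 higher in every mutant library of AT1 and AT2 cells than in any control library of that cell type, and Areg reached 77.4 FPKM in mutant lung against 1.92 in control lung.

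Among the receptors, Egfr fell and Erbb2 was higher in Nkx2-1 mutant cells. Egfr passed the threshold in both cell types, though in AT2 cells under only 6 of 15 other settings. Erbb2 passed it in AT2 cells. Egfr, the receptor of most of these ligands, measured 11.97, 18.8 and 16.5 FPKM in mutant AT1 libraries A to C, against 42.5, 33.5 and 31.2 FPKM in control AT1 libraries. Every mutant library lay below every control library, and the mutant mean was 44.1% of the control mean. The log2 change of FPKM + 1 was -1.14 ± 0.20 (SE, n = 3 per group; limma adjusted p = 0.0115). Without the filter on low values, adjusted p was 0.0748.

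Egfr was the only one of the 8 members tested in AT1 cells to pass the threshold of 0.05, and it fell. In that comparison 17.8% of all 12612 genes tested passed, 11.6% as higher and 6.22% as lower. Deviations of same-letter AT1 libraries correlated at 0.237 to 0.477 and those of other-letter libraries at -0.245 to -0.102. A pairing of the AT1 libraries by letter is inferred from these values only. With the letter as a block, 4 of the 8 members passed: Egfr, Btc, Nrg1 and Erbb3. With that block 3266 of the 12612 genes passed, against 2247 without it. Without control C, Nrg1 and Erbb3 passed beside Egfr. Without control A, Btc did, but it then reached 1 FPKM only in mutant libraries, where it was high. That call carries no weight here. The Btc call with the block is limited too, as only control A of the AT1 controls reached 1 FPKM.

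In AT2 cells Egfr stood at a lower level in both groups, and it fell as deposited but not with libraries rescaled to equal totals. Its values were 4.89, 4.70 and 3.998 FPKM in mutants A to C, against 7.35, 5.52 and 5.65 FPKM in controls. The groups did not overlap, and the log2 change was -0.37 ± 0.13 (n = 3 per group; limma adjusted p = 0.0452). This call did not hold without mutant A, B or C or without control A or C (adjusted p 0.0505 to 0.144). With libraries rescaled to equal totals the change was 0.16, while the median of all genes stood at 0.64, so that relative to this median Egfr was lower under each scaling (-0.45 to -0.48).

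Erbb2, the partner receptor with no known ligand, rose in AT2 cells. Its values were 33.6, 35.6 and 33.9 FPKM in mutant AT2 libraries, against 18.4, 17.6 and 21.4 FPKM in control AT2 libraries, and the 6 values fell into separate ranges by genotype. The log2 change was 0.82 ± 0.09 (limma adjusted p = 0.000415), and it passed under each of the 15 other settings tried. In AT1 cells Erbb2 measured 35.5, 40.3 and 32.2 FPKM in mutants, against 27.6, 26.1 and 26.0 FPKM in controls. The groups did not overlap there either, but the log2 change of 0.42 ± 0.13 missed the threshold (limma adjusted p = 0.0667; 0.0520 to 0.322 over 14 other settings).

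Erbb3, the neuregulin receptor, measured 29.1, 28.2 and 23.8 FPKM in mutant AT1 libraries, against 59.0, 47.4 and 29.7 FPKM in control AT1 libraries. The lowest control and the highest mutant lay close together, and the log2 change was -0.68 ± 0.24 (limma adjusted p = 0.0884; 0.0357 with the letter as a block). Its AT2 values were 26.1, 27.7 and 24.1 FPKM in mutants and 26.9, 26.4 and 28.8 FPKM in controls, with overlapping groups and a log2 change of -0.07 ± 0.09 (limma adjusted p = 0.489). That sign turned to 0.53 with equal totals and to 0.24 with equal totals without mitochondrial and small RNA loci, both below the median of all genes there (0.64 and 0.38).

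The balance between receptors within a library does not depend on the scaling between libraries. The ratio of Erbb2 to Egfr ran from 1.96 to 2.97 in mutant AT1 libraries and from 0.650 to 0.835 in control AT1 libraries. In AT2 cells it ran from 6.87 to 8.49 in mutants and from 2.50 to 3.79 in controls, and in lung it was 9.71 in the mutant and 2.28 in the control. The groups were thus apart in both cell types, with Erbb2 above Egfr in each mutant AT1 library and below it in each control AT1 library. The ratio of Erbb3 to Egfr ran from 5.34 to 6.04 in mutant AT2 libraries and from 3.66 to 5.09 in controls. In AT1 cells its ranges nearly met, at 1.44 to 2.43 in mutants and 0.954 to 1.41 in controls. Egfr made up 15.6 to 22.7% of the summed FPKM of the 3 receptors in mutant AT1 libraries, against 31.3 to 35.9% in controls.

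**Figure D2:**
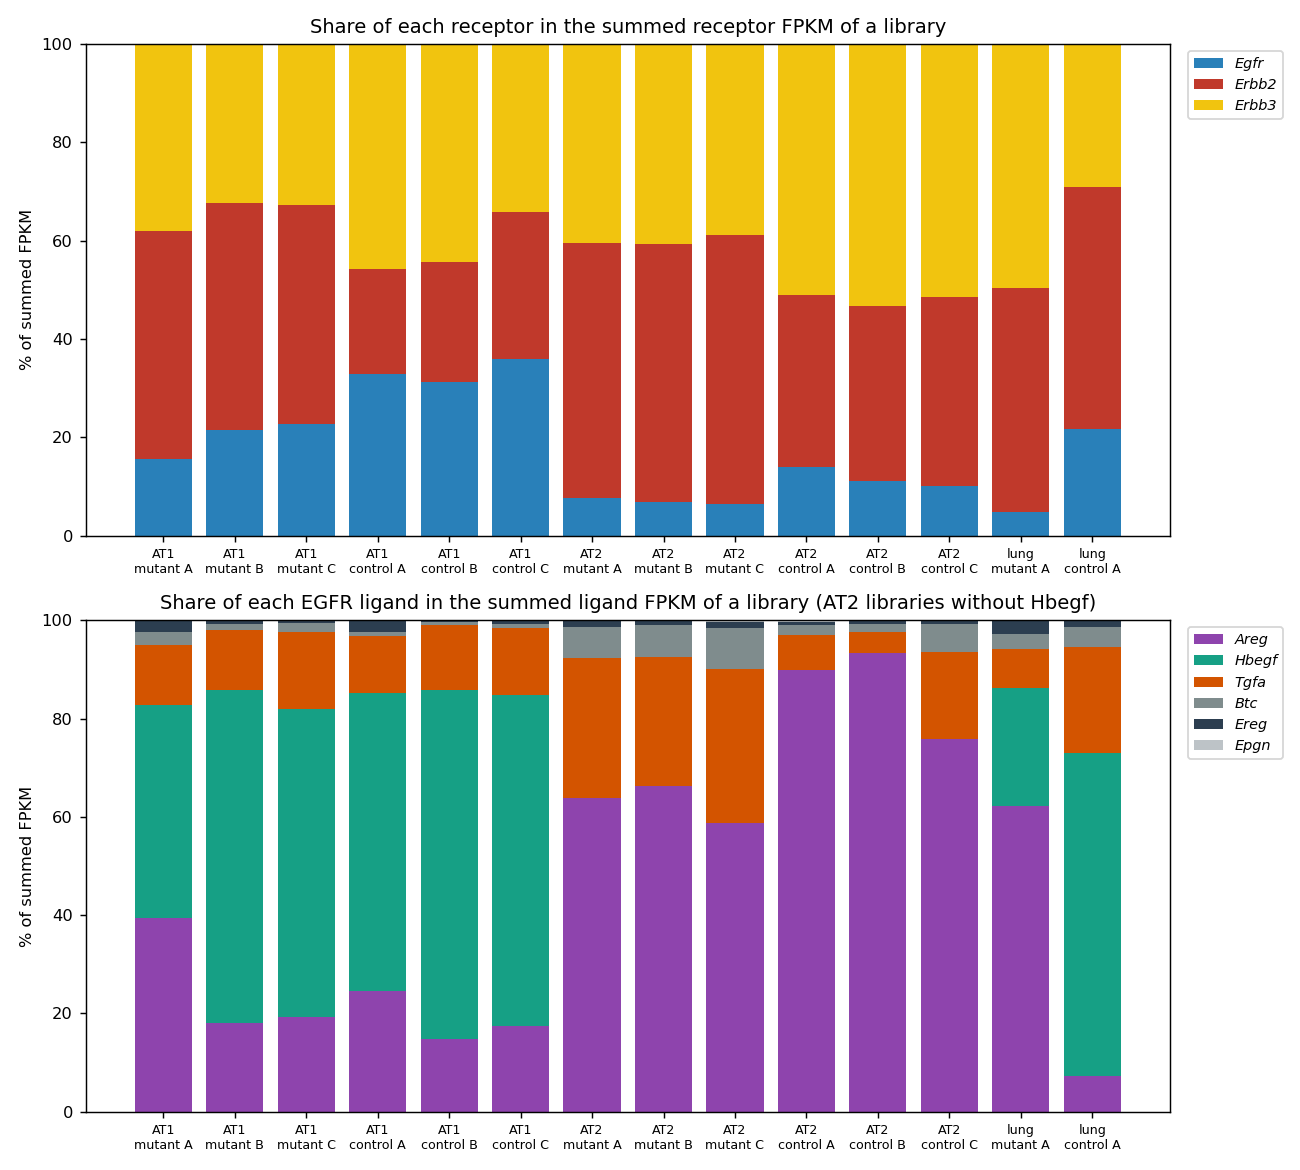
Share (% of summed FPKM) of each receptor (upper panel) and of each EGFR ligand (lower panel) in each of the 14 libraries, mutants left of their controls; Hbegf was not analysed in AT2 libraries, so ligand shares there are over the other ligands. The Egfr share was smaller in mutant than in control libraries of each kind (in lung 4.71% against 21.6%), and the Areg share was 62.2% in mutant lung and 7.29% in control lung.

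Of the markers of other cells, the leukocyte list summed to between 147 and 269.6 FPKM in mutant AT1 libraries and between 396 and 934 in controls, and to between 109 and 321 in mutant AT2 libraries and between 1888 and 3429 in controls. The endothelial list likewise summed to between 209 and 245 FPKM in mutant AT1 libraries and between 289 and 647 in controls, and to between 35.9 and 68.6 in mutant AT2 libraries and between 103 and 166 in controls. The mesenchymal list summed to between 879 and 1284 FPKM in mutant AT1 libraries and between 1188 and 1706 in controls, and to between 32.8 and 44.8 in mutant AT2 libraries and between 75.3 and 142 in controls. The mesothelial list ran the other way in AT1 libraries, from 1524 to 2287 FPKM in mutants and from 273 to 1212 in controls. That sum does not speak for the whole list. Of its 6 genes only Msln and Upk1b passed as higher (log2 changes 1.88 and 2.27). Upk3b was at 0.06, Wt1, Lrrn4 and Gpm6a had negative changes, and the list's median change was -0.07. The airway list summed to between 353 and 1348 FPKM in mutant AT1 libraries and between 1245 and 4796 in controls, and to between 249.9 and 329 in mutant AT2 libraries and between 141 and 233 in controls, with Krt5 at 0 in every AT2 library. The AT2 sums covered 7 leukocyte, 5 mesenchymal and 6 airway markers, as Scgb1a1, Scgb3a2 and others were not analysed there. Of the 2 airway markers tested in AT2 cells, 1 rose and 1 fell. The part of these cells in the receptor and ligand differences was not tested.

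Among the ligands, Tgfa rose in mutant AT2 cells and the others gave smaller or less even differences. Tgfa, which encodes TGF-alpha, measured 13.2, 12.3 and 11.7 FPKM in mutant AT2 libraries, against 6.46, 6.35 and 6.35 FPKM in control AT2 libraries. The mutant mean was 1.94 times the control mean and the groups lay far apart. The log2 change was 0.86 ± 0.08 (limma adjusted p = 0.000195), and it passed under each of the 15 other settings tried. Tgfa in AT1 cells was at 13.9, 14.3 and 17.5 FPKM in mutants and 15.6, 8.19 and 12.9 FPKM in controls. These groups overlapped, with a log2 change of 0.33 ± 0.23 (limma adjusted p = 0.335).

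Btc, which encodes betacellulin, was low but higher in mutants of both cell types. Its levels were 2.94, 2.96 and 3.13 FPKM in mutant AT2 libraries, against 1.89, 2.40 and 2.05 FPKM in control AT2 libraries (log2 change 0.37 ± 0.11, limma adjusted p = 0.0263). No value of 1 group fell within the range of the other, yet the call was lost without any 1 library other than control B (adjusted p 0.0530 to 0.0990). In AT1 cells Btc measured 2.91, 1.48 and 2.07 FPKM in mutants, against 1.10, 0.363 and 0.807 FPKM in controls. The groups were again apart, with a log2 change of 0.84 ± 0.25 (limma adjusted p = 0.0508; 0.0191 with the letter as a block). Of the AT1 controls only A reached 1 FPKM. Btc thus passed the filter there only with the help of the mutant libraries, where it was high, which limits these p-values. At these levels the added 1 FPKM compresses the change.

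Together 4 of the 6 members tested in AT2 cells passed the threshold: Tgfa, Btc and Erbb2 as higher and Egfr as lower. In AT2 cells 54.7% of all 10594 genes tested passed, 32.2% as higher and 22.5% as lower, so the count of 4 lies near the background and is no result about the family. The median log2 change was 0.15 over the 6 members and 0.09 over all genes. In AT1 cells it was 0.21 over 8 members and 0.00065 over all genes.

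Areg, which encodes amphiregulin, differed in sign between the AT1 and AT2 libraries, and neither change passed the threshold. It measured 44.6, 21.1 and 21.5 FPKM in mutant AT1 libraries and 33.3, 9.22 and 16.6 FPKM in control AT1 libraries. Each mutant exceeded the control of its letter, but the groups overlapped (log2 change 0.63 ± 0.45, limma adjusted p = 0.355). Its AT2 values were 29.8, 31.0 and 21.9 FPKM in mutants and 81.5, 140.3 and 27.4 FPKM in controls. The mutants were close together and the controls far apart, with control C, the P9 library, below mutants A and B. The log2 change was -1.29 ± 0.52 (limma adjusted p = 0.0705), -1.93 without control C (adjusted p = 0.00161) and -0.78 without control B (adjusted p = 0.164). With equal totals it was smaller but passed (-0.67, limma adjusted p = 0.0312). Mitochondrial transcripts also differed between these controls, at 33.7, 27.7 and 14.0% of summed FPKM in controls A to C, against 12.8, 11.5 and 8.85% in mutants. Their part in the Areg values was not tested.

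Hbegf, which encodes HB-EGF, was the most abundant of the ligands in AT1 cells. Its values were 49.2, 79.8 and 69.8 FPKM in mutants and 81.8, 44.0 and 64.4 FPKM in controls. The groups overlapped almost fully and the log2 change was 0.08 ± 0.26 (limma adjusted p = 0.851), with a sign that turned under 2 of the 3 other scalings. Nrg1, the neuregulin ligand of ERBB3, was low, at 1.60, 1.87 and 1.17 FPKM in mutant AT1 libraries, against 3.81, 3.90 and 2.12 FPKM in control AT1 libraries. The groups did not overlap, and the log2 change was -0.73 ± 0.23 (limma adjusted p = 0.0634; 0.0252 with the letter as a block). In AT2 cells Nrg1 lay between 0.233 and 0.428 FPKM in mutants and between 0.170 and 0.573 in controls, below the filter of 1 FPKM in 3 libraries.

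Ereg and Epgn did not pass that filter in either cell type. Ereg, which encodes epiregulin, lay between 0.581 and 2.55 FPKM in mutant AT1 libraries and between 0.257 and 2.96 in controls, with both high values in the libraries of letter A. In AT2 libraries it lay between 0.463 and 0.619 FPKM in mutants and between 0.299 and 0.975 in controls. Epgn, which encodes epigen, stayed at or below 0.334 FPKM in all 14 libraries and was listed at 0 in 1 AT2 control and in control lung. Other family genes were also low: Egf, Nrg3 and Erbb4 stayed at or below 0.335 FPKM, and Nrg2 and Nrg4 at or below 1.61 FPKM, in every library where they were listed.

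**Figure D3:**
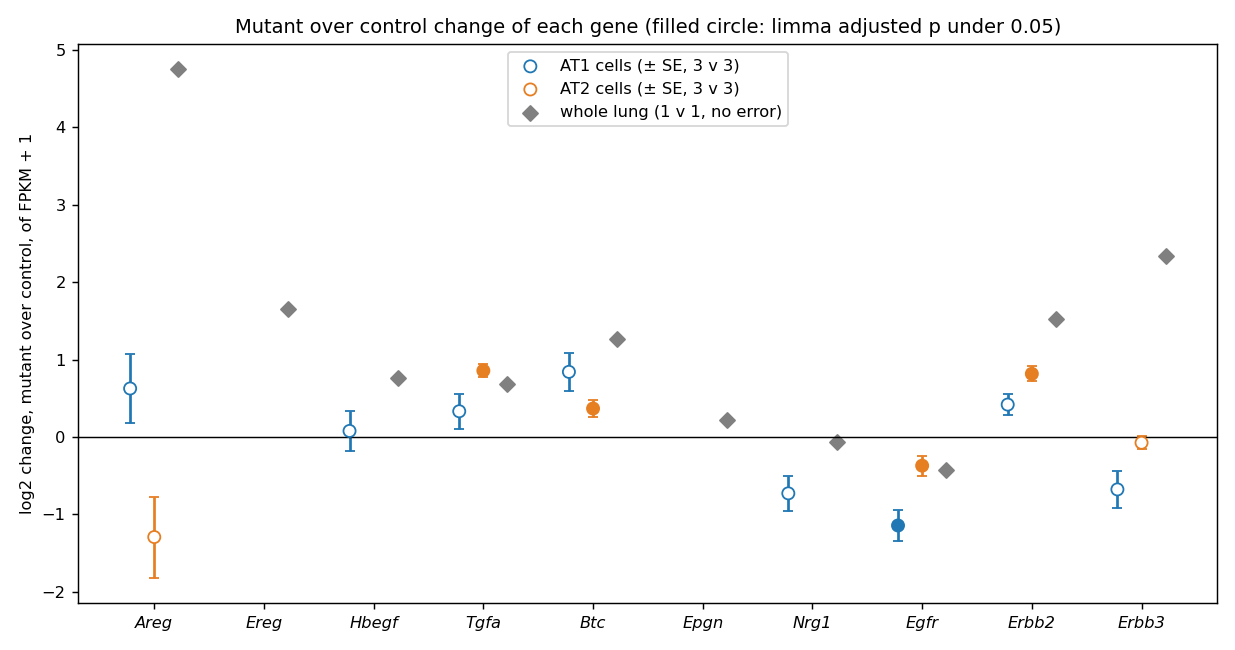
Log2 change of FPKM + 1, mutant over control, for the 10 genes: circles with SE bars for AT1 (blue) and AT2 (orange) cells, filled where the limma adjusted p is under 0.05, and grey diamonds for the ratio of the 1 mutant to the 1 control lung library, which has no error. Filled circles are Egfr in AT1 cells (-1.14) and Tgfa, Btc, Egfr and Erbb2 in AT2 cells; the lung ratio of Areg (4.75) stands above the others.

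In whole lung 3 ligands and 2 receptors stood higher in the mutant by 2-fold or more. With 1 library per genotype, these differences have no replicate check. Areg measured 77.4 FPKM in mutant lung and 1.92 FPKM in control lung, a 40.3-fold ratio and a log2 ratio of FPKM + 1 of 4.75. Ereg measured 3.31 FPKM in mutant lung and 0.372 in control lung, and Btc 3.94 and 1.048 FPKM, so 3 of the 4 neighbours on chromosome 5 stood higher in the mutant lung by log2 ratios of 4.75, 1.65 and 1.27. Epgn, the fourth, was at 0.164 FPKM in mutant lung and listed at 0 in control lung.

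The receptors Erbb2 and Erbb3 were higher in mutant lung as well. Erbb3 measured 45.9 FPKM in mutant lung and 8.27 FPKM in control lung (log2 ratio 2.34), and Erbb2 measured 42.3 and 14.1 FPKM (log2 ratio 1.52). Egfr measured 4.35 FPKM in mutant lung and 6.17 FPKM in control lung (log2 ratio -0.42). Hbegf measured 29.9 FPKM in mutant lung and 17.3 in control lung, Tgfa 9.77 and 5.72 FPKM, and Nrg1 0.423 and 0.490 FPKM. Of the 8 members at 1 FPKM or more in either library, 5 differed by 2-fold or more on this scale, all of them higher in the mutant: Areg, Ereg, Btc, Erbb2 and Erbb3. Of 13717 genes at that level, 23.3% differed by 2-fold or more, 11.9% as higher. The 5 stayed past 2-fold under each of the 4 other settings tried. Of these, Ereg reached 1 FPKM only in the mutant library, where it was high, which limits its place in the count.

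In lung the 6 EGFR ligands summed to 124.6 FPKM in the mutant and 26.3 FPKM in the control. Hbegf made up 24.0% of this sum in mutant lung, against 65.6% in control lung, where it led the ligands. The 3 receptors summed to 92.5 FPKM in mutant lung and 28.5 FPKM in control lung. Airway markers summed to 21079 FPKM in mutant lung and 21956 in control lung, while endothelial markers summed to 716 and 1990, leukocyte markers to 586 and 1881, mesenchymal markers to 799.9 and 1773, erythroid markers to 86.0 and 351, and mesothelial markers to 899.6 and 212. Small RNA loci made up 2.46% of summed FPKM in mutant lung and 32.5% in control lung. The part of cell make-up and of small RNA loci in the lung ratios was not tested.

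Levels also differed between cell types, as a description, since the AT1 and AT2 tables were normalized separately. AT1 and AT2 libraries also differ in age and cross, so that cell type, age and cross cannot be told apart. Among control means Egfr was 35.7 ± 6.0 FPKM in AT1 cells, 6.18 ± 1.02 in AT2 cells (SD, n = 3 each) and 6.17 in lung. Nrg1 averaged 3.28 ± 1.00 FPKM in control AT1 cells and 0.336 ± 0.211 in control AT2 cells. In control AT1 libraries Hbegf, which was not analysed in AT2 cells, stood above Areg and Tgfa in each library. Areg stood above Tgfa in each, though the ranges of these 2 overlapped (19.7 ± 12.3 and 12.2 ± 3.8 FPKM). In control AT2 libraries Areg stood first of the ligands listed (83.1 ± 56.4 FPKM), then Tgfa (6.39 ± 0.07) and Btc (2.11 ± 0.26). Of the ligands listed in both tables, Areg and then Tgfa thus had the highest control means in both cell types. The Areg share of the ligands listed was 58.6 to 66.3% in mutant AT2 libraries and 75.9 to 93.3% in controls, and the Tgfa share was 26.3 to 31.3% in mutants and 4.22 to 17.6% in controls.

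The mutant effect was compared between the AT2 libraries (P8 and P9, Sftpc cross) and the AT1 libraries (P5, Aqp5 cross) as the AT2 change minus the AT1 change over 12 libraries, which share no control. None of the 7 members tested passed in limma, against 8.29% of all 10336 genes. An unadjusted p under 0.05 was found for 5 of the 7, but the share of all genes at that level is not given here. The difference was -1.92 ± 0.78 for Areg (adjusted p = 0.140; 0.0350 with the letter as a block; 0.0397 without AT2 control C). It was 0.77 ± 0.25 for Egfr (limma adjusted p = 0.0731) and 0.72 ± 0.28 for Nrg1 (adjusted p = 0.127), which passed the filter only through AT1 libraries. With equal totals 5 of the 7 passed, but so did 4138 genes in all, and the median difference of all genes stood at 0.71. For Tgfa and Erbb2, called in AT2 cells only, the differences of 0.52 ± 0.26 and 0.40 ± 0.15 also missed the threshold (limma adjusted p = 0.218 and 0.121). For Btc it was -0.47 ± 0.27 (limma adjusted p = 0.292) and for Erbb3 0.60 ± 0.28 (limma adjusted p = 0.188).

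Egfr was the only member called in both cell types, in AT2 cells under only 6 of 15 other settings. The 3 genes whose profiles over the 12 libraries, each centred within its table, lay nearest to that of Egfr were Ppp2r5a, Slc44a2 and Trp53bp2. Their mean absolute differences from it were 0.0975, 0.111 and 0.112 on the log2(FPKM + 1) scale, the smallest among 9146 genes compared.

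Genes that release, transmit or damp the ErbB signal were listed by role. The lists used from here on were chosen with earlier results of these data known, so their counts are descriptions only. Of 6 sheddases and partners that passed the filter in AT1 cells, Timp3 fell and 4 did not pass the test, against 11.6% higher and 6.22% lower over all genes. Timp3, an inhibitor of these proteases, measured 136, 165 and 175 FPKM in mutant AT1 libraries, against 718, 308 and 346 in controls (log2 change -1.42 ± 0.31, limma adjusted p = 0.0223). Rhbdl2, a rhomboid protease, measured 2.195, 1.08 and 1.07 FPKM in mutants and was at or below 0.134 FPKM in controls. Rhbdl2 passed the filter only through the mutant libraries, where it was high, so no test is given for it. The Timp3 call was lost without mutant A, B or C. In AT2 cells 1 of 5 rose and 1 fell, below the 32.2% higher and near the 22.5% lower over all genes. Adam10, the sheddase of betacellulin, measured 64.6, 86.3 and 69.4 FPKM in mutant AT2 libraries, against 40.2, 30.1 and 31.1 in controls (1.10 ± 0.15, limma adjusted p = 0.000877). Rhbdf2, a partner of ADAM17, measured 18.4, 19.3 and 20.8 FPKM in mutants and 34.7, 35.8 and 33.6 in controls (-0.80 ± 0.08, limma adjusted p = 0.000226). Adam17 itself did not pass in either cell type (limma adjusted p = 0.539 in AT1 cells and 0.0923 in AT2 cells).

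Of the adaptors and the RAS-MAPK core, 1 of 17 rose and none fell in AT1 cells in limma, against 11.6% and 6.22% of all genes. An unadjusted p under 0.05 was found for 2 of them, without a share of all genes to set beside it. The gene that rose was Hras (log2 change 0.53 ± 0.15, limma adjusted p = 0.0435), a call lost under 10 of 14 other settings. With the letter as a block 2 rose and 1 fell, while 1907 rose and 1359 fell over all 12612 genes. In AT2 cells 5 of 15 rose and 2 fell, and 3 rose without mutant A or mutant C. With 32.2% of all genes higher and 22.5% lower, the count of 5 lies near the background and is no result about the list. The largest increases were in the GTPase gene Nras (0.66 ± 0.12, limma adjusted p = 0.0026) and the phosphatase gene Ptpn11 (0.58 ± 0.08, limma adjusted p = 0.000679). The exchange factor gene Sos2 fell by 0.50 and the kinase gene Araf by 0.47, calls that both scalings to equal totals lost. Over 14 other settings their highest values were 0.08 and 0.15, below the median of 0.64 that equal totals gave all AT2 genes. The list's median log2 change was -0.05 in AT1 cells and 0.12 in AT2 cells.

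Feedback inhibitors and genes of receptor turnover moved both ways. In AT1 cells 1 of 17 rose and 2 fell, against 11.6% and 6.22% of all genes, and without mutant A, B or C 0 rose and 1 fell. Dusp6, an ERK phosphatase that ERK itself induces, measured 25.7, 34.0 and 34.8 FPKM in mutant AT1 libraries, against 69.0, 70.2 and 54.0 in controls (-1.01 ± 0.17, limma adjusted p = 0.0111). Socs2 fell by 0.64 (limma adjusted p = 0.0327) and Spred2, a RAS inhibitor, rose by 0.54 (limma adjusted p = 0.03), calls that 7 and 8 of 14 other settings lost. With the letter as a block 2 rose and 3 fell, while 1907 rose and 1359 fell over all 12612 genes. In AT2 cells 3 of 14 rose and 8 fell, against 32.2% higher and 22.5% lower over all genes. The 8 include Spred3, which passed the filter only through the control libraries, where it was high, so its call carries no weight here. A filter on the mean left Spred3 out, and then 3 of 13 rose and 7 fell. Without control A, control C or mutant B 5 fell, and without a filter 2 rose and 1 fell. Dusp6 measured 22.5, 24.5 and 17.9 FPKM in mutant AT2 libraries, against 36.8, 79.5 and 38.4 in controls (-1.13 ± 0.29, limma adjusted p = 0.0132). Socs2 fell by 1.503 (limma adjusted p = 0.0112) and Dusp4, another ERK phosphatase, by 1.09 (limma adjusted p = 0.0114). Lrig1, which promotes degradation of ErbB receptors, measured 22.7, 26.6 and 21.7 FPKM in mutants, against 10.2, 10.2 and 7.83 in controls (1.25 ± 0.13, limma adjusted p = 0.000239). Lrig3 rose by 1.06 ± 0.15 (limma adjusted p = 0.000975), and its change exceeded that in AT1 cells by 1.00 ± 0.24 (limma adjusted p = 0.0301).

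The list's median log2 change was -0.39 in AT1 cells and -0.31 in AT2 cells, against 0.00065 and 0.09 over all genes. With equal totals, which set the median of all AT2 genes at 0.64, 4 of its genes rose and 1 fell in AT2 cells. The AT2 changes of Dusp6 (-1.33 to -0.52), Dusp4 (-1.33 to -0.50) and Socs2 (-1.73 to -0.89) stayed below 0 under each of 14 other settings, though equal totals and the lack of a filter each lost the Dusp6 and Dusp4 calls.

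Among ERK-responsive targets, set apart from the ligand members, Plaur and Emp1 rose in both cell types and Etv5 fell in AT2 cells. In AT1 cells 3 of 9 rose and none fell in limma, against 11.6% and 6.22% of all genes. An unadjusted p under 0.05 was found for 4 of them, without a share of all genes to set beside it. With the letter as a block 3 rose and 1, Etv5, fell, while 1907 rose and 1359 fell over all 12612 genes. Only Plaur passed without control B, without control C, without any 1 mutant or with equal totals. In AT2 cells 4 of 7 rose and 1 fell, against 32.2% and 22.5% of all genes, which also gave more increases than decreases. The 4 include Etv4, which passed the filter only with the help of the mutant libraries, where it was high, so this count is limited. Plaur, the urokinase receptor gene, measured 116, 164 and 110.5 FPKM in mutant AT1 libraries, against 41.1, 48.8 and 38.5 in controls (1.57 ± 0.19, limma adjusted p = 0.00421). Its AT2 values were 69.3, 54.1 and 47.0 FPKM in mutants, against 9.66, 6.63 and 8.20 in controls (2.65 ± 0.17, limma adjusted p = 4.36e-05). The AT2 change of Plaur exceeded the AT1 change by 1.08 ± 0.27 (limma adjusted p = 0.0305). Emp1, which encodes an epithelial membrane protein, rose by 0.96 ± 0.26 in AT1 cells (limma adjusted p = 0.042) and by 1.57 ± 0.20 in AT2 cells (limma adjusted p = 0.000665). Phlda1 rose by 0.72 ± 0.16 in AT1 cells (limma adjusted p = 0.0247). The AT1 calls of Emp1 and Phlda1 were lost under 8 and 7 of 14 other settings. The cyclin D1 gene Ccnd1 rose by 1.29 ± 0.14 in AT2 cells (limma adjusted p = 0.000317) and was not analysed here in AT1 cells.

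Etv5 is an ETS factor gene that receptor tyrosine kinase signals induce. It measured 21.9, 24.3 and 21.8 FPKM in mutant AT2 libraries, against 251, 303 and 275 in controls (-3.55 ± 0.10, limma adjusted p = 3.07e-06). Its AT1 values were 7.48, 11.7 and 30.2 FPKM in mutants and 15.7, 18.5 and 53.5 in controls, with overlapping groups but each mutant below the control of its letter (-0.80 ± 0.56, limma adjusted p = 0.344; 0.0153 with the letter as a block). The early response genes Egr1 (-0.53 ± 0.26, limma adjusted p = 0.179) and Ier3 (-0.44 ± 0.29, limma adjusted p = 0.318) had changes of the same sign in AT1 cells that did not pass. Myc (0.76 ± 0.25, limma adjusted p = 0.0734), Etv4 (0.55 ± 0.33) and Hmga2 (0.32 ± 0.33) did not pass there either and had changes of the opposite sign. Egr1, Ier3 and Hmga2 were not analysed here in AT2 cells. The AT2 change of Etv5 was lower than its AT1 change by -2.75 ± 0.66 (limma adjusted p = 0.0267). The paralog gene Etv4 rose by 0.78 ± 0.16 in AT2 cells (limma adjusted p = 0.00519) at 2.03 to 2.70 FPKM in mutants and 0.605 to 1.12 FPKM in controls. Not all controls reached 1 FPKM, so Etv4 passed the filter only with the help of the mutant libraries, where it was high, which limits this call. In lung, Plaur measured 135 FPKM in the mutant and 32.2 in the control, and Etv5 9.16 and 40.5 FPKM. Dusp6 measured 58.9 FPKM in mutant lung and 69.3 in control lung, and Lrig1 13.3 and 4.58 FPKM.

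**Figure D4:**
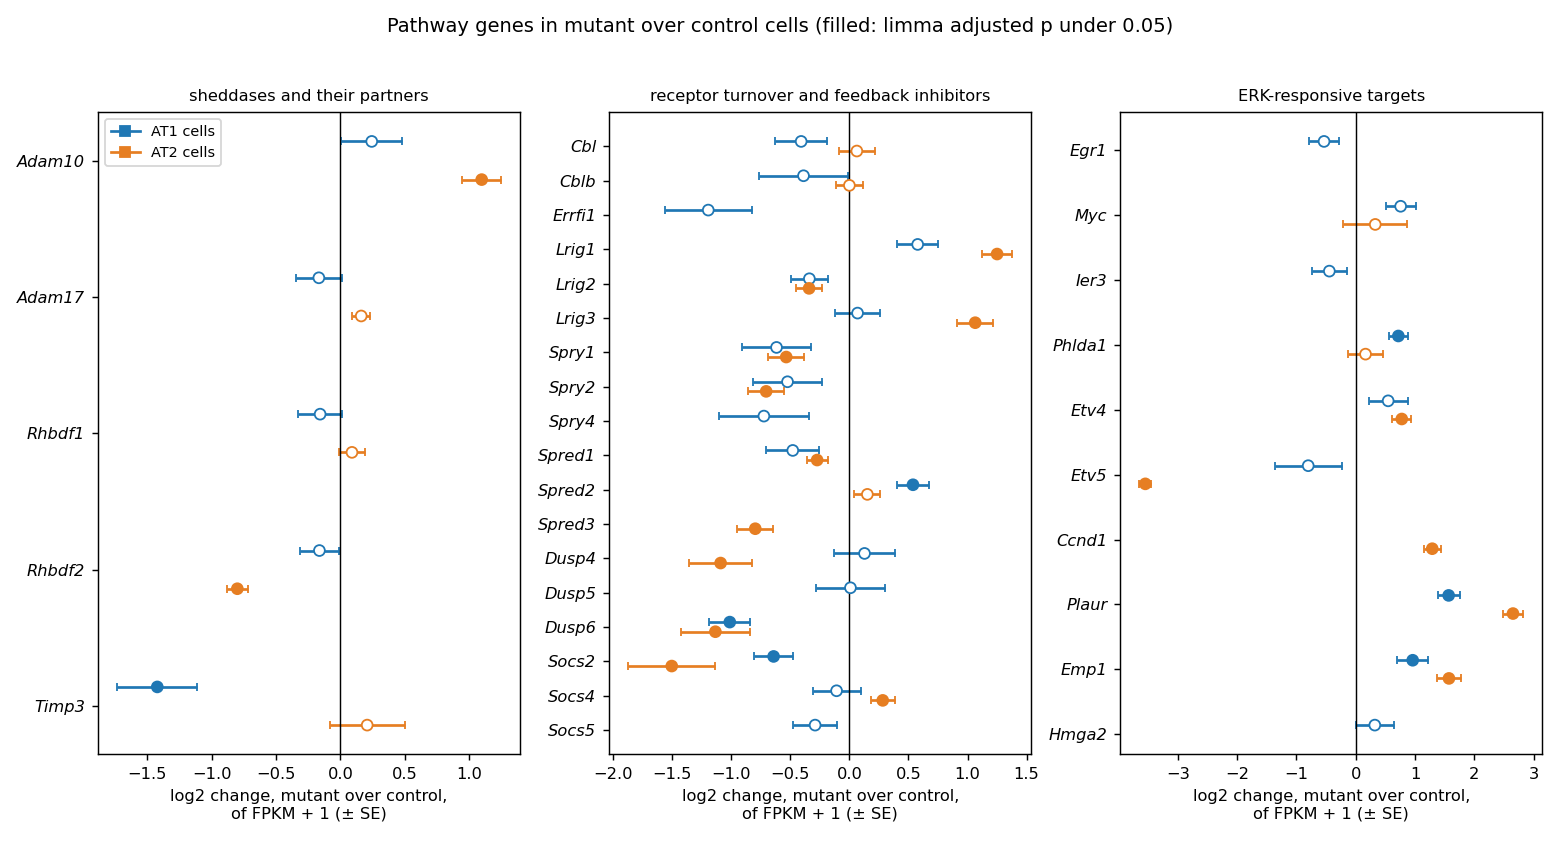
Log2 change of FPKM + 1, mutant over control, with SE bars, for sheddases and partners, feedback inhibitors and ERK-responsive targets tested in AT1 (blue) or AT2 (orange) cells, Rhbdl2 left out; filled circles have a limma adjusted p under 0.05. Plaur and Emp1 are filled to the right of 0 in both cell types, Dusp6 and Socs2 to the left in both, and Etv5 lies farthest to the left (-3.55 in AT2 cells). Spred3, drawn for AT2 cells, passed the filter only through the control libraries.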

How the data were processed

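Expression was measured by poly(A) RNA-seq with paired-end reads of 76 nucleotides, per the labels' protocols. The submitters' processing notes list the mm10 build, Cufflinks 2.2.1, Bowtie2 2.2.3 and TopHat2 2.0.14, with Cuffdiff for AT1 and lung libraries and Cuffnorm for AT2 libraries. Annotation and strand use: not given in the sources used here. The values deposited by the authors are FPKM, 1 column per library, so read depth is unknown and no counting interval is given. Their fold and p-value columns were not used.

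Values were tested as log2(FPKM + 1) with limma 3.58.1 (trended prior variance) in R 4.3.3, two-sided, on genes at 1 FPKM or more in at least 3 libraries, with Benjamini-Hochberg adjustment over all genes and a threshold of 0.05. The 1441 unnamed AT2 loci were left out. AT1 and AT2 tables were fitted separately, and the AT2 change minus the AT1 change was fitted over 12 libraries. Lung, with 1 library per group, has ratios only. The fits were tested on simulated data. A pairing of the AT1 libraries by the letters A to C was inferred from same-letter correlations of deviations (0.237, 0.357 and 0.477). All 10 members were named, with up to 3 called genes per list, direction and cell type. Members, lists and motifs were chosen with earlier results of these data known.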

Additional observations from a re-analysis of the deposited data

Results flagged for a closer look

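Areg differed in direction between the cell types, which also differ in age and cross: each mutant lay above the control of its letter in AT1 cells and below it in AT2 cells. In AT1 cells mutants A to C measured 44.6, 21.1 and 21.5 FPKM, against 33.3, 9.22 and 16.6 FPKM in controls A to C. In AT2 cells mutants A to C measured 29.8, 31.0 and 21.9 FPKM, against 81.5, 140.3 and 27.4 FPKM in controls A to C. A pairing by letter was inferred for the AT1 libraries from correlations of their deviations, and the AT2 libraries showed none. The AT2 change minus the AT1 change was -1.92 (limma adjusted p = 0.140; 0.0350 to 0.319 over 20 other settings, 2 of which passed), so the difference missed the threshold. The P9 control measured 27.4 FPKM, against 81.5 and 140.3 FPKM in the P8 controls. Within the P8 libraries alone (letters A and B of each group), the AT2 change was -1.78 (limma adjusted p = 0.00698). That leaves out the P9 control, the lowest of the AT2 controls. With all AT2 libraries the change was -1.29 (limma adjusted p = 0.0705). A cause was not tested.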

How the results depend on the processing

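Tgfa and Erbb2 in AT2 cells passed under each of 15 other settings, and Egfr in AT1 cells under 13 of 14. Without a filter, 119 genes and 0 members passed in AT1 cells. With equal totals, 1342 genes passed in AT1 cells (686 higher, 656 lower), 6011 rose and 815 fell in AT2 cells, and 4138 genes and 5 members passed for the AT2 change minus the AT1 change (3973 higher, 165 lower; median of all genes 0.71). With equal totals without mitochondrial and small RNA loci, 1134 rose and 892 fell in AT1 cells and 5123 rose and 1301 fell in AT2 cells; 2950 genes and 5 members passed for the difference (2657 higher, 293 lower; median 0.42). Lung split into 2149 higher and 1222 lower under the first of these scalings and 1128 and 2404 under the second. Median ratio scaling split the calls into 2726 higher and 2970 lower in AT2 cells and 312 and 652 for the difference. Without a trended prior, 2 members passed in AT1 cells. With P8 libraries only, 3844 genes passed in AT2 cells.

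With the replicate block, 3266 genes and 4 members passed in AT1 cells, and 1345 genes and 1 member (Areg) passed for the difference. The AT2 letters showed no pairing in the same-letter correlations (0.120, -0.133 and 0.115). With the block, Areg was called in AT2 cells (limma adjusted p = 0.0235) and Btc was not (0.0502), and 5679 genes passed.

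With 1 library left out, AT1 cells gave 473 to 1990 genes (473 without mutant A) and 1 to 3 members, AT2 cells 4490 to 5512 genes and 2 to 4 members, and the difference 407 to 1038 genes (407 without AT2 control B) and 0 to 2 members. Hbegf in AT1 cells was -0.057 with equal totals, -0.0092 without mitochondrial and small RNA loci, and -0.16 to 0.28 with 1 library left out. In AT2 cells Egfr was 0.16 with equal totals, and Erbb3 was 0.53, 0.24 and, in P8 libraries, 0.011. The difference for Btc was 0.063 with equal totals. The scalings shift all genes by construction; otherwise the cause was not tested. Depth is unknown, so whether low values of Ereg, Epgn and Nrg1 reflect depth was not tested.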
